A study of Mus musculus with 6 samples.

Results

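Genes linked to inherited forms of Parkinson disease or parkinsonism were examined in the ventral midbrain of Bach1 knockout and wild-type mice. The 9 genes were Lrrk2, Park7, Pink1, Uchl1, Vps35, Atp13a2, Fbxo7, Dnajc6 and Synj1, out of 22180 genes with a probe set of their own on the array. They were chosen by symbol, and each was read from the probe set whose mean over the 6 arrays was highest. All 9 had such a probe set, 10 in all, because Uchl1 had a second one, and none of the 10 was shared with another gene in the annotation.

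RNA came from male mice 2 months of age, on 3 arrays labelled Bach1 KO and 3 labelled WT. The structure of the knockout allele, the strain background and whether each array held a separate animal are not stated in the labels, so p-values measure only the spread between these samples, which may be technical. The values are log2 expression levels, on which a difference of 1 is a doubling. Array medians lay between 5.58 and 5.69, and all 9 genes exceeded 5.07, the 40th percentile of the probe sets' mean levels, which served here as a limit for dim signals. Th and Slc6a3, the tyrosine hydroxylase and the dopamine transporter that define the dopamine neurons of this region, averaged 11.30 and 12.04 on the knockout-labelled arrays, against 11.16 and 11.89 on the wild-type arrays. The tissue also holds glia and vessels, and fewer cells of a type cannot be told apart from less RNA per cell.

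Most forms of Parkinson disease are sporadic, and the inherited forms point to a few cellular processes. Pink1 and Park7 act on damaged mitochondria and oxidative stress, Fbxo7 and Uchl1 in the ubiquitin system, Vps35, Lrrk2 and Atp13a2 in traffic between endosomes and lysosomes, and Dnajc6 and Synj1 in the recycling of synaptic vesicles. BACH1 is a repressor that binds heme and occupies antioxidant response elements, from which NRF2 activates its targets, and loss of BACH1 is studied as a way to raise those targets in dopamine neurons. The comparison addressed which transcripts differed between the genotypes.

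None of the 9 genes passed the test, and every estimated difference was small. The differences, knockout-labelled minus wild type, ran from -0.15 (Uchl1) to 0.062 (Lrrk2), and limma gave no adjusted p below 0.674. Over all probe sets, 3 of 41345 passed an adjusted p of 0.05, which is 0.00726%, all in the higher direction. Among genes, each read from 1 probe set, 0.00451% passed. Of the 9, 0 passed with limma and 0 reached an unadjusted p under 0.05, against 6.51% of all genes at the unadjusted threshold. For the probe set read for each gene, the 95% intervals reached at most 1.28-fold lower (Uchl1) and 1.22-fold higher (Park7). The interval of the second Uchl1 probe set reached 1.33-fold higher. The median width of the intervals was 0.40 over the 9 genes and 0.54 over all genes, both on the log2 scale and not matched by level.

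As a group the 9 genes sat close to the middle of all genes. Their median log2 difference was -0.019, against -0.0098 over all genes and -0.024 over genes above the dim limit, where the 9 lie. Among all genes 46.9%, and among genes above the dim limit 40.7%, had a higher knockout-labelled mean. Of the 9, that mean was higher for 3 and lower for 6. That count depended on the scaling and on 1 array. It was 1 higher after centring each array on its median, 5 higher after renewed quantile normalization, and 5 higher without knockout-labelled replicate 2. The median of the absolute log2 differences was 0.032 over the 9 genes and 0.079 over the genes above the dim limit, a set not matched to the 9 by level.

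The check of the labels limits what the direction of any difference can carry. Bach1 itself (probe set 17326895) read 7.59, 7.68 and 7.70 on the knockout-labelled arrays and 7.46, 7.59 and 7.57 on the wild-type arrays, so its signal was not lower on the arrays labelled knockout. A probe set outside a deleted part checks nothing, and the labels do not say where this one lies. Hmox1, the inducible heme oxygenase and a well-known BACH1 target, read 8.50, 8.22 and 8.41 on the knockout-labelled arrays and 6.51, 6.46 and 6.32 on the wild-type arrays. Its log2 difference was 1.95 (95% interval 1.69 to 2.21; limma, adjusted p = 0.0181), and it was the named gene that passed. Leaving out any 1 array ended that call, with adjusted p-values from 0.134 to 0.233 (limma). The log2 difference itself stayed between 1.88 and 2.03 in those fits.

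**Figure D1:**
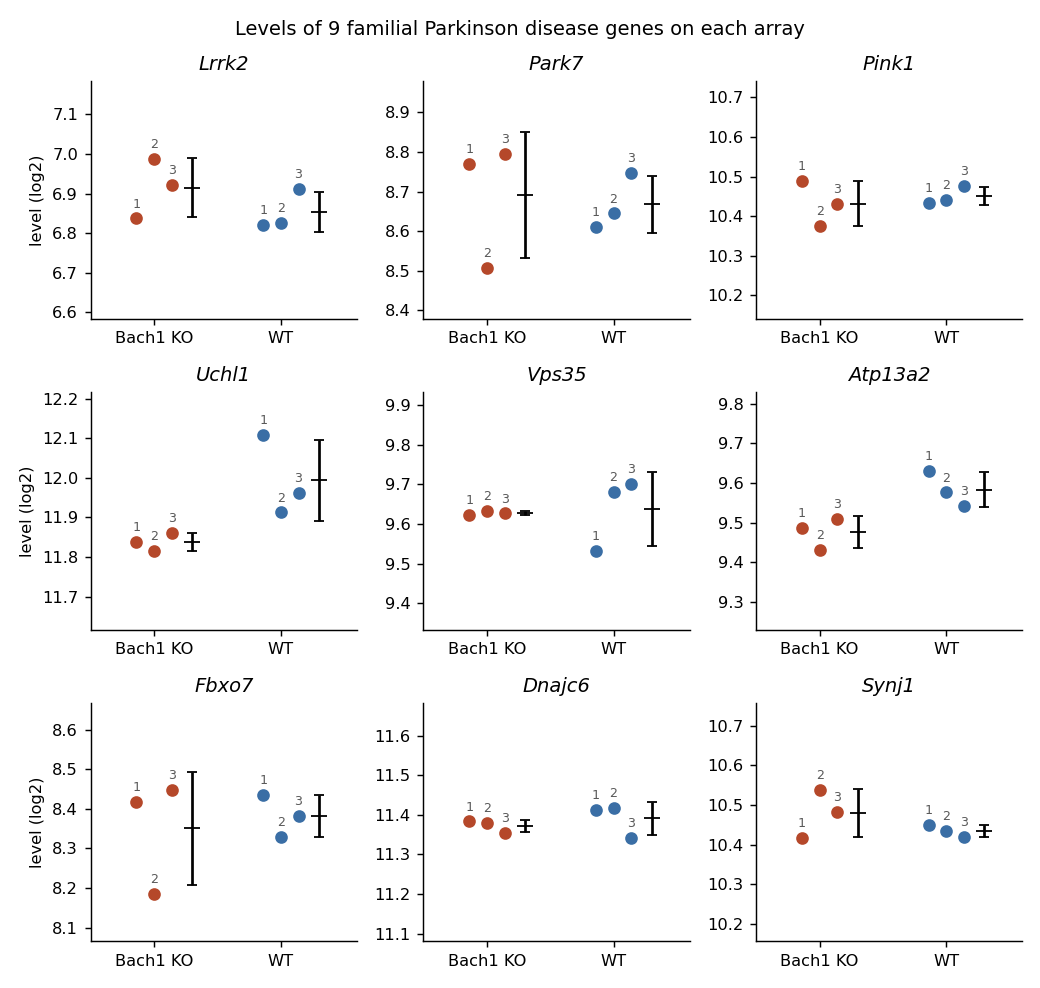
Log2 level (vertical axis, each panel spanning the same 0.6 log2 units) of each of the 9 genes on the 3 Bach1 KO-labelled arrays (left, red) and the 3 WT arrays (right, blue). Small digits are replicate numbers, and the black bar is the mean with its SD. The groups do not overlap for Uchl1 and Atp13a2, and knockout-labelled replicate 2 lies apart from its group for Park7 and Fbxo7.

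Uchl1 had the largest estimated difference of the 9 genes, and its second probe set had a mean difference of the other sign that rested on 1 array. It encodes an abundant neuronal ubiquitin hydrolase, and its brighter probe set (17437876) read 11.84, 11.82 and 11.86 on the knockout-labelled arrays. On the wild-type arrays it read 12.11, 11.91 and 11.96. The 3 knockout-labelled values lay within 0.046 of each other and below every wild-type value, by a gap of 0.051, and wild-type replicate 1 was the highest. The estimated difference was -0.15 (95% interval -0.36 to 0.052), 1.11-fold lower, which missed the threshold (limma, adjusted p = 0.674). Without wild-type replicate 1 the value was -0.098, and the gap between the groups was the same.

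The other Uchl1 probe set (17448444) read 6.50, 6.25 and 6.09 on the knockout-labelled arrays and 6.14, 6.14 and 6.22 on the wild-type arrays. The groups overlapped, with knockout-labelled replicate 1 the highest and replicate 3 the lowest of the 6. Its log2 difference was 0.12 (95% interval -0.18 to 0.41; limma, adjusted p = 0.82). It was 0.0056 without knockout-labelled replicate 1 and 0.21 without knockout-labelled replicate 3. The RefSeq gene table holds an antisense gene, Uchl1os, that overlaps Uchl1 and has 0 probe sets of its own here. The strand and the part of the locus that each probe set reads are not given in the annotation used here, so the probe sets cannot be ranked as measures of the Uchl1 transcript.

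Fbxo7 encodes an F-box protein that serves as a substrate receptor of SCF ubiquitin ligases and also binds mitophagy proteins. It read 8.42, 8.19 and 8.45 on the knockout-labelled arrays and 8.44, 8.33 and 8.38 on the wild-type arrays (probe set 17236155). On the log2 scale the difference was -0.032 (95% interval -0.27 to 0.21; limma, adjusted p = 0.95). Knockout-labelled replicate 2 was the lowest of the 6 arrays, and without it the difference was 0.051.

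Around these genes, 14 further members of the ubiquitin list were measured: other ubiquitin hydrolases, SCF ligase subunits and related genes. In this list the knockout-labelled mean was higher for 8 and lower for 6, 0 passed in either direction (limma) and 1 reached an unadjusted p under 0.05. The median log2 difference was 0.027. Fbxl2, another F-box gene, read 7.84, 7.86 and 7.88 on the knockout-labelled arrays and 8.05, 8.04 and 8.11 on the wild-type arrays, a log2 difference of -0.21 (limma, adjusted p = 0.567). Bap1, a nuclear ubiquitin hydrolase of the same enzyme family as Uchl1, had a log2 difference of -0.14 (adjusted p = 0.679). The groups did not overlap for either gene, both lower on the knockout-labelled arrays.

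Among the genes of endosomes and lysosomes, Atp13a2 separated by group. It encodes a lysosomal P5-type ATPase that exports polyamines. Its probe set (17420911) read 9.49, 9.43 and 9.51 on the knockout-labelled arrays. On the wild-type arrays it read 9.63, 9.58 and 9.54. Every knockout-labelled value lay below every wild-type value, by a gap of 0.034, which is smaller than the range within either group (0.078 knockout-labelled and 0.089 wild type). The log2 difference was -0.11 (95% interval -0.29 to 0.075), 1.08-fold lower, which missed the threshold (limma, adjusted p = 0.732). It kept its sign under all 15 alternatives, between -0.16 and -0.078. Several of these, such as other variance models and the dim filter, leave the estimate unchanged and could not turn its sign.

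Uchl1 and Atp13a2 were thus 2 of 9 genes whose groups did not overlap, both lower and 0 higher. Over all genes 7.94% separated in the lower direction, 6.36% in the higher and 14.3% in either. Of the 15790 genes above the dim limit, 1507 separated in the lower direction and 787 in the higher. An exact two-sided permutation test gave p = 0.1 for Uchl1 and for Atp13a2, which is the smallest p that 3 against 3 arrays allow. Both genes are bright, and the tenth of probe sets that holds them had a median log2 difference of -0.021.

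The P5-type ATPase and lysosome list around Atp13a2 had 5 higher and 14 lower means among 19 measured, with 0 passed in either direction (limma) and 1 at an unadjusted p under 0.05. Its median log2 difference was -0.055, against -0.0098 over all genes and -0.024 over genes above the dim limit. Tmem175, a lysosomal potassium channel linked to Parkinson disease risk, read 9.21, 9.17 and 9.22 on the knockout-labelled arrays and 9.47, 9.40 and 9.40 on the wild-type arrays. Its groups did not overlap, and its log2 difference was -0.22 (95% interval -0.40 to -0.044; limma, adjusted p = 0.557). Atp13a5, a paralog of Atp13a2, had a log2 difference of -0.30 with overlapping groups (adjusted p = 0.612). The list's mean deviation from the wild-type mean was -0.029, -0.12 and -0.027 on the knockout-labelled arrays and between -0.014 and 0.018 on the wild-type arrays, so replicate 2 was the lowest.

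Vps35 encodes the core of the retromer, which returns receptors from endosomes to the Golgi and the cell surface. It read 9.62, 9.63 and 9.63 on the knockout-labelled arrays and 9.53, 9.68 and 9.70 on the wild-type arrays (probe set 17511318). The knockout-labelled values spanned 0.010 and fell inside the wild-type range of 0.17. The estimated difference was -0.0098 (95% interval -0.21 to 0.19; limma, adjusted p = 0.983).

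The retromer list held 20 measured genes with 11 higher and 9 lower means, a median of 0.0069, 0 passed in either direction and 0 at an unadjusted p under 0.05 (limma). Snx3, a sorting nexin that recruits retromer to membranes, had a log2 difference of -0.12, and the WASH complex subunit gene Washc3 also had one of -0.12 (adjusted p = 0.732 for both). The groups of both genes did not overlap.

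Lrrk2 encodes a large kinase that phosphorylates Rab GTPases. It read 6.84, 6.99 and 6.92 on the knockout-labelled arrays and 6.82, 6.83 and 6.91 on the wild-type arrays (probe set 17314260). The groups overlapped, with knockout-labelled replicate 2 the highest. On the log2 scale the difference was 0.062 (95% interval -0.14 to 0.26; limma, adjusted p = 0.867), and it lay between 0.015 and 0.101 under the 15 alternatives. Without knockout-labelled replicate 2 it was 0.026, and without knockout-labelled replicate 1 it was 0.101.

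Its paralog Lrrk1, a kinase with a similar domain order, had the smallest unadjusted p of the Lrrk2 list. Lrrk1 read 6.19, 6.22 and 6.27 on the knockout-labelled arrays and 6.47, 6.51 and 6.47 on the wild-type arrays. The groups lay apart and each was narrow, and the log2 difference was -0.26 (95% interval -0.44 to -0.081), which did not pass (limma, adjusted p = 0.526). Of the 25 measured genes of that list, which holds Rab GTPases and their regulators, 8 had a higher and 17 a lower mean, with a median of -0.024, 0 passed and 1 at an unadjusted p under 0.05. Rab35, a Rab GTPase of endosomal recycling, had a log2 difference of -0.097 (adjusted p = 0.765).

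The mitochondrial genes Pink1 and Park7 had means that differed little. Pink1 encodes a kinase that gathers on damaged mitochondria and starts their removal. It read 10.49, 10.38 and 10.43 on the knockout-labelled arrays and 10.43, 10.44 and 10.48 on the wild-type arrays (probe set 17431749). The knockout-labelled values reached beyond the wild-type range on both sides, and the log2 difference was -0.019 (95% interval -0.20 to 0.16; limma, adjusted p = 0.963).

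Park7 encodes DJ-1, a protein that responds to oxidation of one of its cysteines. It read 8.77, 8.51 and 8.80 on the knockout-labelled arrays and 8.61, 8.65 and 8.75 on the wild-type arrays (probe set 17433310). Knockout-labelled replicates 1 and 3 were the highest of the 6 arrays and replicate 2 the lowest. The log2 difference was 0.023 (95% interval -0.24 to 0.28; limma, adjusted p = 0.97). It was 0.11 without knockout-labelled replicate 2 and -0.029 without replicate 3.

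The mitophagy and import list around Pink1 had 11 higher and 11 lower means among 22 measured, a median of -0.00078, 0 passed and 0 at an unadjusted p under 0.05 (limma). Tomm22, an import receptor of the outer membrane, read 9.84, 9.76 and 9.78 on the knockout-labelled arrays and 9.90, 9.96 and 9.93 on the wild-type arrays. Its groups did not overlap, at a log2 difference of -0.14 (adjusted p = 0.674). Usp30, a deubiquitinase that opposes mitophagy, had a log2 difference of -0.14 with overlapping groups (adjusted p = 0.724).

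The redox list around Park7 had 7 higher and 9 lower means among 16 measured, a median of -0.0052, 0 passed and 1 at an unadjusted p under 0.05 (limma). That gene was Gclm, a subunit of glutamate-cysteine ligase in the glutathione pathway, with a log2 difference of 0.30 (adjusted p = 0.538). Daxx, which encodes a nuclear protein that binds DJ-1, had a log2 difference of -0.12 (adjusted p = 0.79).

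The vesicle genes Dnajc6 and Synj1 had overlapping groups. Dnajc6 encodes neuronal auxilin, the cochaperone that strips clathrin from vesicles. It read 11.38, 11.38 and 11.35 on the knockout-labelled arrays and 11.41, 11.42 and 11.34 on the wild-type arrays (probe set 17415943). The knockout-labelled values fell inside the wild-type range, and the log2 difference was -0.019 (95% interval -0.20 to 0.16; limma, adjusted p = 0.963).

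Synj1 encodes synaptojanin, a phosphoinositide phosphatase that helps release the clathrin coat. It read 10.42, 10.54 and 10.48 on the knockout-labelled arrays and 10.45, 10.44 and 10.42 on the wild-type arrays (probe set 17332050). Knockout-labelled replicates 2 and 3 were the highest and replicate 1 the lowest. The estimated difference was 0.045 (95% interval -0.14 to 0.23; limma, adjusted p = 0.901). It was 0.076 without knockout-labelled replicate 1 and 0.015 without knockout-labelled replicate 2. Synj1 lies on chromosome 16 (RefSeq, GRCm38.p6), as Bach1 does, with 70 protein-coding genes between them in the gene table. Of the genes between them, 45 were measured and 0 passed.

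The clathrin and endocytosis list had 13 higher and 14 lower means among 27 measured, a median of -0.0080, 0 passed and 0 at an unadjusted p under 0.05 (limma). Sh3gl3, which encodes endophilin A3, had a log2 difference of -0.25 (adjusted p = 0.629). Stx1a, a syntaxin of the presynaptic membrane, had one of -0.18 (adjusted p = 0.686). The groups overlapped for both genes.

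**Figure D2:**
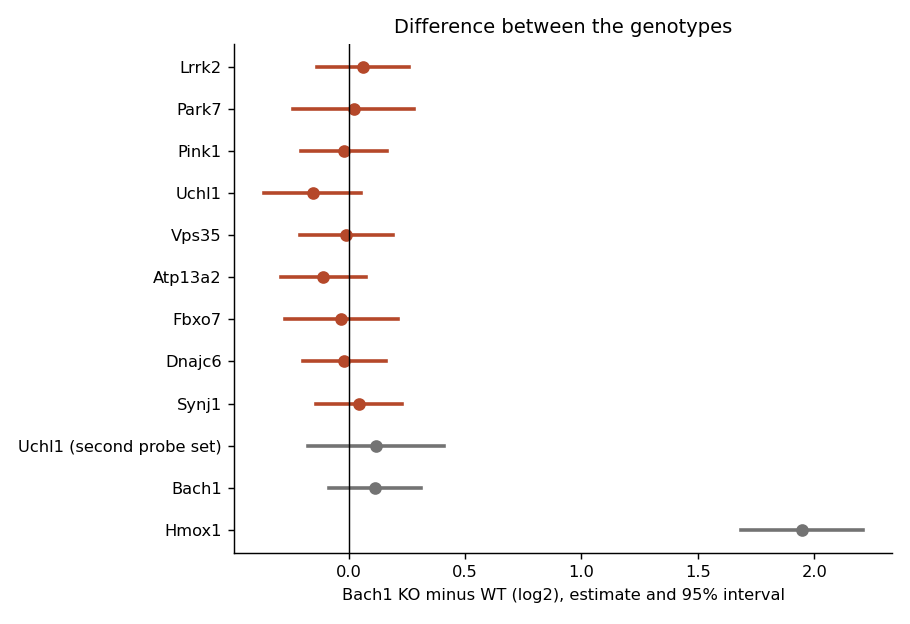
Estimated difference, Bach1 KO-labelled minus WT (horizontal axis, log2), as a point with its 95% interval from limma for the 9 genes (red) and, in grey, the second Uchl1 probe set, Bach1 and Hmox1. All 9 intervals include 0, while Hmox1 lies at 1.95.

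Further genes linked to Parkinson disease or parkinsonism showed no common direction. Of 16 measured, 8 had a higher and 8 a lower mean, with a median of -0.0065, 0 passed and 1 at an unadjusted p under 0.05 (limma). That gene was Rab32, a Rab GTPase, which read 6.08, 6.10 and 6.01 on the knockout-labelled arrays and 5.94, 5.87 and 5.72 on the wild-type arrays. Its groups did not overlap, at a log2 difference of 0.22 (adjusted p = 0.595). Lrp10, a receptor that cycles between endosomes and the Golgi, had a log2 difference of -0.12 (adjusted p = 0.725). Over the 158 distinct measured genes of the 8 partner lists, 71 had a higher and 87 a lower mean, 0 passed and 5 reached an unadjusted p under 0.05. Their groups did not overlap for 5 genes in the higher and 13 in the lower direction, against 6.36% and 7.94% of all genes. All 158 lay above the dim limit. Of the 15790 genes above it, 787 separated in the higher and 1507 in the lower direction.

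**Figure D3:**
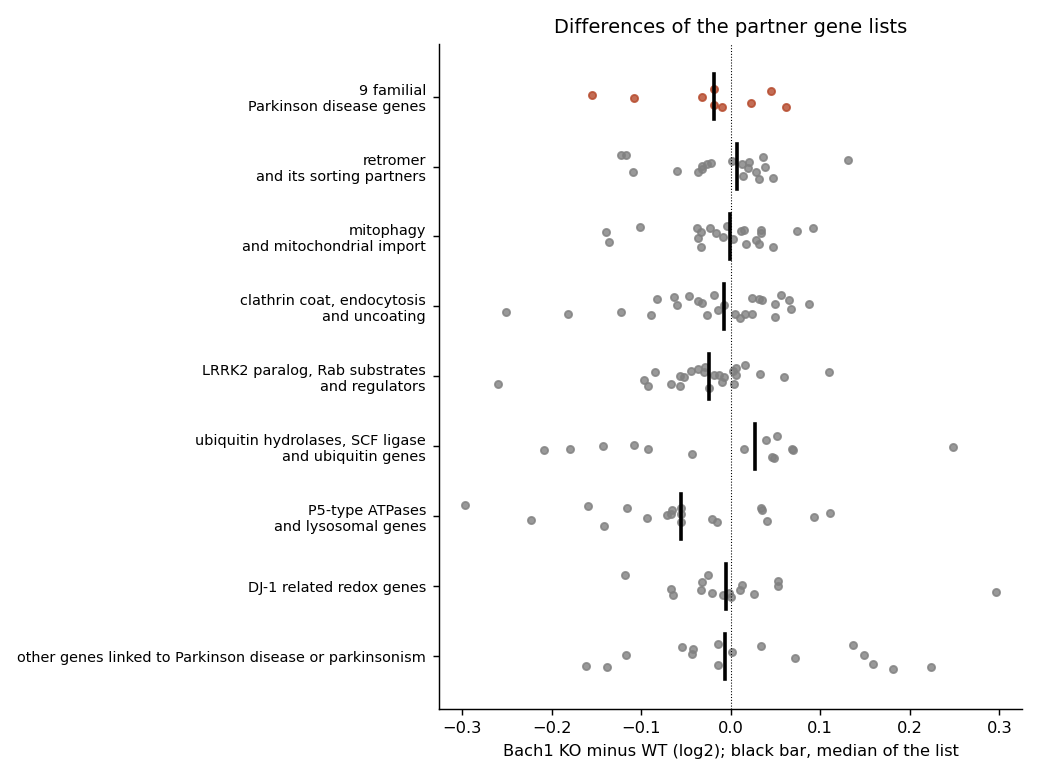
Log2 difference, Bach1 KO-labelled minus WT (horizontal axis), of each measured gene (points) in the 9 Parkinson disease genes (top, red) and in 8 lists of genes that work with them (grey). Black bars are list medians, which lie between -0.055 for the P5-type ATPase and lysosome list and 0.027 for the ubiquitin list.

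For 8 of the 9 genes, all but Atp13a2, the wider of the ranges within a group exceeded the difference between the genotypes. Knockout-labelled replicate 2 held the lowest value of 5 genes (Park7, Pink1, Uchl1, Atp13a2 and Fbxo7) and the highest of 2 (Lrrk2 and Synj1). The same array held the lowest value of 24.6% of all genes and of 29.2% of genes above the dim limit, more than any other array. Park7 and Fbxo7 deviated there by -0.17 and -0.18 from their means over the 6 arrays, and Lrrk2 and Synj1 by 0.10 and 0.082. Uchl1 deviated most on wild-type replicate 1, by 0.19, where Atp13a2 also stood highest, at 0.10. Even so, the median within-group SD of the 9 genes was 0.064, below the 0.11 of genes above the dim limit. The dimmest of the 9, Lrrk2, averaged 6.88, while that set reaches down to 5.07, so the SDs are not matched by level.

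**Figure D4:**
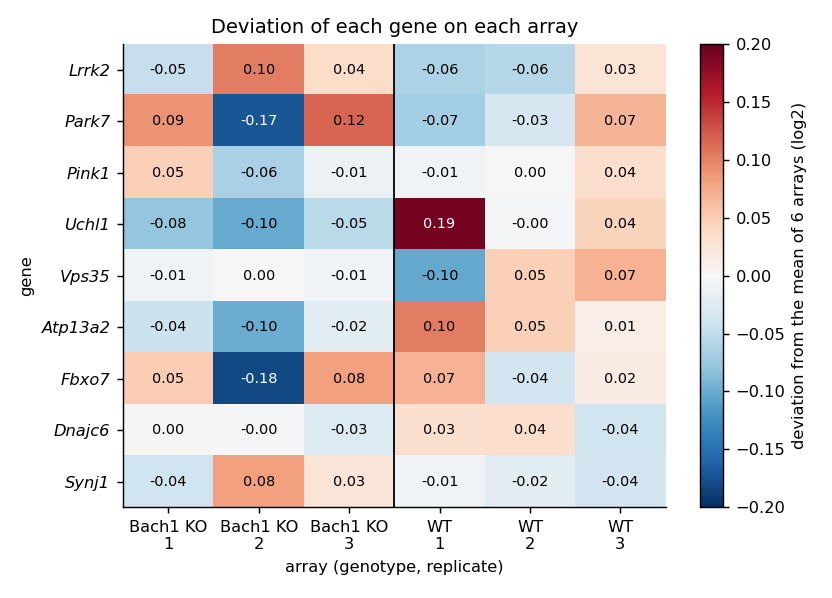
Deviation of each gene (rows) on each array (columns) from its mean over the 6 arrays, in log2 units, red for above and blue for below. The Bach1 KO-labelled arrays stand left of the line and the WT arrays right of it. Knockout-labelled replicate 2 is lowest for 5 genes, with Park7 and Fbxo7 at -0.17 and -0.18.

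Markers of several cell types and regions also stood apart on that array. The mean deviation of oligodendrocyte markers from the wild-type mean was -0.19 on knockout-labelled replicate 2, against 0.082 and 0.046 on replicates 1 and 3 and between -0.045 and 0.090 on the wild-type arrays. Of the 10 measured oligodendrocyte markers, 8 were lowest on that array. Their summed level was between 14.47 and 14.71 (log2) on the knockout-labelled arrays, and between 14.57 and 14.70 on the wild-type ones, and 0 of the 10 lay under the dim limit. Opalin, a myelin gene, was the marker of this list with the smallest unadjusted p, at a log2 difference of -0.24 (limma, adjusted p = 0.704). Markers of neurons in general barely moved, at -0.027 on that array and between -0.036 and 0.051 on the wild-type arrays, with summed levels between 15.47 and 15.48 for the knockout-labelled group and between 15.43 and 15.49 for the wild type. Of the 15 neuron markers 0 passed, and Nefm, a neurofilament gene, had a log2 difference of 0.18 (limma, adjusted p = 0.771). Cortex and hippocampus markers were at -0.23, 0.43 and -0.13 on the knockout-labelled arrays and between -0.26 and 0.22 on the wild-type arrays, so replicate 2 was the highest. Their summed levels lay between 11.51 and 12.24 for the knockout-labelled group and between 11.74 and 11.99 for the wild type, and 1 of the 11 genes lay under the dim limit. Of these markers 6 had a higher and 5 a lower mean, with a median of 0.027 and 0 passed. Wfs1, the one with the smallest unadjusted p, had a log2 difference of -0.41 (limma, adjusted p = 0.512). Dopamine neuron markers were at 0.11, -0.10 and 0.24 on the knockout-labelled arrays and between -0.076 and 0.041 on the wild-type arrays, with summed levels between 14.07 and 14.40 for the knockout-labelled group and between 14.05 and 14.19 for the wild type. Of those 22 markers 17 had a higher mean, 0 passed, and Aldh1a1, which marks a subset of dopamine neurons, had a log2 difference of 0.26 (limma, adjusted p = 0.564).

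Vessel and precursor markers were also low on knockout-labelled replicate 2. Endothelial and mural cell markers were at -0.064, -0.29 and -0.11 on the knockout-labelled arrays and between -0.076 and 0.074 on the wild-type arrays, and 9 of the 14 were lowest on replicate 2. Their summed levels lay between 12.90 and 13.10 for the knockout-labelled group, and between 12.97 and 13.10 for the wild type. Of the 14, 12 had a lower mean, the median was -0.15, 0 passed and 1 reached an unadjusted p under 0.05 (limma). Among them Pdgfrb, a pericyte receptor, had a log2 difference of -0.30 (limma, adjusted p = 0.597). Oligodendrocyte precursor markers were at 0.081, -0.19 and 0.055 on the knockout-labelled arrays and between -0.055 and 0.031 on the wild-type arrays. Only 4 of the 8 were lowest on replicate 2. Their summed levels lay between 12.03 and 12.30 for the knockout-labelled group and between 12.17 and 12.29 for the wild type. Of those 8 markers 4 had a lower mean and 0 passed, and Bcan, a brain proteoglycan gene, had a log2 difference of -0.061 (limma, adjusted p = 0.859).

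Most markers of some regions and tissues beside the ventral midbrain had means on 1 side, though 0 of them passed (limma). An unadjusted p under 0.05 was reached by 2 hypothalamus and pituitary markers, 0 meningeal, 0 striatal and 2 hindbrain and serotonergic markers. Hypothalamus and pituitary markers had a lower mean for 12 of 13, a median of -0.65 and 0 passed. Their mean deviation was between -1.16 and -0.47 on the knockout-labelled arrays and between -0.50 and 0.60 on the wild-type arrays, and their summed levels lay between 9.89 and 11.77 for the knockout-labelled group and between 11.57 and 12.77 for the wild type, with 3 of the 13 under the dim limit. Trh, which encodes thyrotropin-releasing hormone, had a log2 difference of -1.59 (limma, adjusted p = 0.569). Meningeal fibroblast markers had a lower mean for 10 of 12, a median of -0.34 and 0 passed. Their summed levels lay between 13.01 and 13.52 for the knockout-labelled group and between 13.26 and 13.87 for the wild type. Their mean deviation was -0.062, -0.79 and -0.30 on the knockout-labelled arrays. On the wild-type arrays it was -0.76, 0.40 and 0.36, so wild-type replicate 1 was close to the lowest knockout-labelled array. Ptgds, a prostaglandin D synthase gene, had a log2 difference of -0.38 (limma, adjusted p = 0.616). Striatum markers had a lower mean for 7 of 8, a median of -0.23 and 0 passed. Their summed levels lay between 10.87 and 11.17 for the knockout-labelled group and between 10.83 and 11.37 for the wild type. The mean deviation of these markers was -0.070, -0.34 and -0.38 on the knockout-labelled arrays. On the wild-type arrays it was -0.36, 0.15 and 0.22, so wild-type replicate 1 again lay among the knockout-labelled values. Tac1, a neuropeptide gene, had a log2 difference of -0.66 (limma, adjusted p = 0.623). Hindbrain and serotonergic markers went the other way, with a higher mean for 9 of 11, a median of 0.21 and 0 passed. Their summed levels lay between 8.81 and 9.17 for the knockout-labelled group and between 8.56 and 8.84 for the wild type. Of the 11, 7 lay under the dim limit, and of the 4 above it 3 had a higher mean. Slc6a4, the serotonin transporter gene, had a log2 difference of 0.58 (limma, adjusted p = 0.512). It lay under the dim limit, and the tenth of probe sets that holds it had a median log2 difference of 0.077. What part these shifts have in the values of the 9 genes was not tested.

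By pattern over the 6 arrays, the 9 genes fell into no single group. Likeness was measured as the root mean square difference between profiles centred on their own means, so that smaller is more alike. Among the 9, the closest pair was Lrrk2 and Synj1 (0.039), followed by Uchl1 and Atp13a2 (0.048) and by Pink1 and Dnajc6 (0.049). Park7 and Fbxo7, which were both lowest on knockout-labelled replicate 2, were at 0.064, and the least alike pair was Park7 and Uchl1, at 0.148. Among 15789 other genes above the dim limit, the most alike to Uchl1 was Bricd5 (0.014) and to Atp13a2 it was Arf6 (0.014). The most alike to Lrrk2, Synj1, Park7 and Fbxo7 were Snx25 (0.012), Slc4a4 (0.012), D10Wsu102e (0.023) and Cep43 (0.014). For Pink1, Vps35 and Dnajc6 they were Stimate (0.0072), Rbbp7 (0.0092) and Blvra (0.011). With 6 arrays and so many genes, close matches are to be found for any flat profile, and these names are a description only.

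The promoters of the genes were searched for the elements that the comparison bears on. Windows of 250 bases before a start site were available from RefSeq (GRCm38.p6) for 8 of the 9 genes, 11 windows in all, and not used here for Vps35. The core of the antioxidant response element, TGACNNNGC on either strand, was in 0 of the 11 windows and in 10.2% of all 32851 windows. The AP-1 and Maf type core TGANTCA, which shares its first 3 letters with that core, was in 0 of the 11 and in 6.75% of all. These letters are absent from these windows only, and elements farther away were not searched.

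A motif of the type bound by nuclear respiratory factor NRF1, that is GCGCA, any base and then GCGC, on either strand, was in 3 of the 11 windows and in 3.74% of all. It was described after its matches were seen, among 9 motifs searched. Of the others, the GC box CCCGCCC was in windows of Atp13a2 and Synj1 and in 23.4% of all windows. A shorter form of the NRF1 type motif was in windows of Park7 and Fbxo7 and in 2.22% of all. The longer matches of both genes contain this form, so it is not a separate result. The E-box CACGTG, the cyclic AMP response element, the extended antioxidant and Maf element and the estrogen-related receptor element were in 0 of the 11, and in 6.02%, 1.55%, 0.39% and 1.33% of all. The extended element contains both the antioxidant response element core and the AP-1 and Maf type core, so its absence follows from theirs. The genes with the NRF1 type motif were Park7, Fbxo7 and Pink1, and Fbxo7 held 2 matches. These stretches are shown because 3 genes share the motif, more than any other motif searched. A match is a description and not a binding site. The stretches run 5′ to 3′ on the strand of the gene, with the matches in capitals. They lie at chr4:150910015-150910074 on the minus strand for Park7, at chr10:86021778-86021902 on the plus strand for Fbxo7 and at chr4:138326297-138326331 on the minus strand for Pink1, all upstream of the annotated start. The Pink1 match ends directly before the start.
Park7: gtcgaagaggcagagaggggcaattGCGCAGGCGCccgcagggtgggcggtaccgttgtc
Fbxo7: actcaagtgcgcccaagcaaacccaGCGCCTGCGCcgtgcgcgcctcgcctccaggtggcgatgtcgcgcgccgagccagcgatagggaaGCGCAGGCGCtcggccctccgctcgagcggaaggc
Pink1: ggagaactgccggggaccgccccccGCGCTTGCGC
The matches begin 128 bases before the start for Park7, 126 and 61 bases before it for Fbxo7, and 10 bases before it for Pink1.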

How the data were processed

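The arrays were Affymetrix gene arrays hybridised with biotin-labelled material made from total RNA, per the labels' protocols. Deposited log2 levels, 1 column per array, had been made by the authors with RMA, per the submitters' processing notes. RMA corrects background, normalizes between arrays and summarises probes, so a change common to most genes would be removed. Neither its version nor the annotation behind it is stated in the labels. The number of arrays limits the precision.

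Probe sets (41345) were named from a platform annotation and updated through Entrez identifiers to a RefSeq table (GRCm38.p6), which matched 23328. It paired 23521 probe sets with 1 gene and 1814 with several, left 16010 unnamed, and only the first kind named a gene. Other columns of sample values numbered 0. The files name no build, so gene coordinates are given only with RefSeq promoter sequences.

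All probe sets were fitted with limma 3.58.1 in R 4.3.3 (lmFit, eBayes, no covariates), with Benjamini-Hochberg adjustment over all of them and calls at an adjusted p of 0.05. The fit was tested on simulated data. The members, lists, tests and named genes were chosen with earlier results of these data known. The text names the 9 genes, Bach1, Hmox1, for each partner list the called genes or, with none, the 2 with the smallest unadjusted p, for each marker list described the 1 with the smallest, and the gene most alike to each of the 9. Th and Slc6a3 were added as tissue markers, as were Uchl1os and motifs, after values were seen. Alternatives were other scalings, variance models, array weights, a filter on dim probe sets, other probe sets per gene, a replicate block and leaving out each array.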

Additional observations from a re-analysis of the deposited data

How the results depend on the processing

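Over 135 alternative values of the 9 genes' differences, 0 of those tested passed, with a smallest adjusted p of 0.59 (limma). The values from other choices of probe set per gene were not tested. Of the 135, 12 changed sign, all for differences of small size or for the other Uchl1 probe set. Many of the 135 could not change sign, since the variance models, the dim filter and the replicate block leave the estimate unchanged. For a gene with 1 probe set, the other choices of probe set do the same. After centring each array on its median, Park7 was at -0.024 and Synj1 at -0.0024, 1 of the 9 genes had a higher mean, their median was -0.066, and 29 of the 158 partner genes had a higher mean. After renewed quantile normalization, Vps35 was at 0.0094 and Fbxo7 at 0.0082, 5 genes had a higher mean, their median was 0.0082, and 92 partner genes had a higher mean, which turned the majority, since 71 did in the values as deposited. With the probe set of the highest SD, Uchl1 was at 0.12, and averaged over both probe sets it was at -0.019. Leaving out each array in turn gave 0 called probe sets in every case, 2 to 5 of the 9 genes with a higher mean and medians from -0.024 to 0.0085, with ranges of -0.029 to 0.11 for Park7, -0.048 to 0.0085 for Pink1, -0.081 to 0.051 for Fbxo7, -0.063 to 0.022 for Vps35, 0.026 to 0.101 for Lrrk2, 0.015 to 0.076 for Synj1, -0.043 to -0.0054 for Dnajc6, -0.20 to -0.098 for Uchl1, -0.13 to -0.084 for Atp13a2 and 0.0056 to 0.21 for the other Uchl1 probe set. Genotypes share replicate numbers in the labels, which do not say whether same-numbered arrays are paired. Deviations of same-numbered arrays from their group means correlated at 0.086, -0.033 and 0.039. With so few arrays per group these values cannot decide whether the samples are paired. With a replicate block 0 probe sets were called. Hmox1 then had an adjusted p of 0.544 (limma) at an unchanged log2 difference of 1.95. The cause of these changes was not tested. Signal over background limits differences of dim probe sets, while the 9 genes lay above the dim limit.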
